A study of Mus musculus with 15 samples.

Results

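H3K4me2 peaks that were called in control αTN4 lens cells and had no counterpart after Pax6 knockdown (KD) are described here by their place, their neighbours, the other marks they carry and their sequence. A peak belongs to this set, named control-only below, when it shares not even 1 bp with any H3K4me2 peak of the KD cells. The set holds 11630 of the 66274 H3K4me2 peaks of control cells (17.5%), and the other 54644 are called kept. In the other direction, 4834 of the 65852 KD peaks (7.34%) had no control counterpart and are called KD-only. αTN4 cells are immortal epithelial cells of mouse lens that carry SV40 T antigen. Control cells carried a control shRNA and KD cells an shRNA against Pax6. Both were infected with lentivirus and kept under puromycin for 14 days, and the study's methods give its second Pax6 shRNA construct for these KD libraries. The newborn lens came from CD-1 mice at postnatal day 1. ChIP-seq for H3K4me1, H3K4me2 and H3K4me3 was done in control and KD cells, for Pax6 and RNA polymerase II (Pol2) in control cells, and for H3K4me2 in lens.

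Each condition has 1 library per mark, so no replicate error can be given, no p-value is printed, and a peak missing from 1 list is a missing call, not a measured loss. Lists of peaks hold no read totals, and the depth of the H3K4me2 libraries is unknown. The peak names of the control H3K4me2 list point to pooled replicates and those of the KD list to a single one. Differences of sequencing depth, of pooling and of the cells therefore cannot be told apart in these calls. Expression of Pax6 itself was not analysed here. Intervals of shares are 95% Wilson intervals, which cover counting error only, and neighbouring peaks are not independent.

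Methylation of lysine 4 of histone H3 is placed by Set1 and Mll complexes and removed by Kdm1 and Kdm5 enzymes. Pax6 is a transcription factor with a paired domain and a homeodomain, needed for eye and lens development. H3K4me3 marks the starts of active genes, H3K4me1 is spread over enhancers, and H3K4me2 is found at both. AP-1, a dimer of Fos and Jun proteins, binds many enhancers of cultured cells.

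The sequences below are those on which later results turn, read from mm9. The first group shows the window within 50 bp of the Pax6 summit for the control-only peaks with the 5 strongest Pax6 peaks by −log10 q, and for Cpa6. Capitals mark TTCACGC, a core word of the site read by the paired domain of Pax6, on either strand. This word was chosen after the sequences had been seen, and Cpa6 was added because it holds the word. The Pax6 summit may lie just outside the H3K4me2 peak.
Hipk2 intron, chr6:38710400-38710500, plus strand: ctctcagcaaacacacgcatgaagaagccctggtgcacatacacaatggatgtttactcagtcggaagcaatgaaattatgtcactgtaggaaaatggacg
near B4galt5, chr2:167206307-167206407, plus strand: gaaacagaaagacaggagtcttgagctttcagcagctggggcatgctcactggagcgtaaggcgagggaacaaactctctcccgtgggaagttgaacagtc
intergenic, Adcyap1 side, chr17:94075913-94076013, plus strand: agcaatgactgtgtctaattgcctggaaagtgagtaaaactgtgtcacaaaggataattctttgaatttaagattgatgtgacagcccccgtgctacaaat
intergenic, St3gal1 side, chr15:66894170-66894270, plus strand: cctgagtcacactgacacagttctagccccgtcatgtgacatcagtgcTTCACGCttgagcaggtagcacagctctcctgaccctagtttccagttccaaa
near Lyplal1, chr1:187961092-187961192, plus strand: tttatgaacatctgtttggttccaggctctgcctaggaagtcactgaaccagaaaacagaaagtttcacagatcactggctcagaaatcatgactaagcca
Cpa6 intron, chr1:10481994-10482094, plus strand: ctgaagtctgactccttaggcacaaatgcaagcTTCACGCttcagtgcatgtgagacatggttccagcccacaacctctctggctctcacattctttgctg

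The second group gives the window within 100 bp of the H3K4me2 summit for the 4 control-only peaks of highest fold enrichment that lie over 1 kb from any KD peak and hold the AP-1 word. Capitals mark TGAGTCA or its reverse complement TGACTCA, bound by Fos and Jun dimers.
near Cenpm, chr15:82077546-82077746, plus strand: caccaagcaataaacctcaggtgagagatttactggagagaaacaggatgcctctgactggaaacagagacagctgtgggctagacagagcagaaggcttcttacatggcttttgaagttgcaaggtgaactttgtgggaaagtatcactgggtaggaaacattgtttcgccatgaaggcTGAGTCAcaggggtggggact
Uso1 intron, chr5:92574026-92574226, plus strand: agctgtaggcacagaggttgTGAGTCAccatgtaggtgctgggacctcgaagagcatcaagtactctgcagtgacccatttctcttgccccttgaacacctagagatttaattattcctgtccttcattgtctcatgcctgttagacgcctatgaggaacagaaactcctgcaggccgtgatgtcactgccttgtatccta
near Nkx2-3, chr19:43679054-43679254, plus strand: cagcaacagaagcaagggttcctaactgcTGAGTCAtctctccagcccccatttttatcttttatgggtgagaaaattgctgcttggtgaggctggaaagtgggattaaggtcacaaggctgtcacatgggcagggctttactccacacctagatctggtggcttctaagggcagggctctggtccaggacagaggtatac
intergenic, Cplx2 side, chr13:54419021-54419221, plus strand: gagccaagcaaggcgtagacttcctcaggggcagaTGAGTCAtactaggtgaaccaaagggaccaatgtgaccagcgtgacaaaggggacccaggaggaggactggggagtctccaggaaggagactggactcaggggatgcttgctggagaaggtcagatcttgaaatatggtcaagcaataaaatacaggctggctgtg

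The third group gives the middle of control-only peaks near lens genes and in Pmepa1 that also have H3K4me2 in newborn lens, chosen after their values were seen. Capitals mark words for AP-1, Ets (CCGGAA), Meis (TGACAG), Sox (ACAAAG) and Runx (TGTGGT) on either strand, and windows with no capitals hold none of these letters.
near Sox2, chr3:34541679-34541829, plus strand: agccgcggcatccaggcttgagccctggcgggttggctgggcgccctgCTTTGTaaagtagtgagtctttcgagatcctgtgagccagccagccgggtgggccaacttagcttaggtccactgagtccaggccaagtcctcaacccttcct
near Cryba4, chr5:112656614-112656764, plus strand: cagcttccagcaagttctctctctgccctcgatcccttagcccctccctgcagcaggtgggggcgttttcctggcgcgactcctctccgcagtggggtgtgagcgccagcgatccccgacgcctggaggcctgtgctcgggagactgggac
near Meis2, chr2:115894754-115894904, plus strand: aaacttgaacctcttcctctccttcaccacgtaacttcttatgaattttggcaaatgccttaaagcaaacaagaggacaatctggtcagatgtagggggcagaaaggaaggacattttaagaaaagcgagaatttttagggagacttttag
Pmepa1 intron, chr2:173063281-173063431, plus strand: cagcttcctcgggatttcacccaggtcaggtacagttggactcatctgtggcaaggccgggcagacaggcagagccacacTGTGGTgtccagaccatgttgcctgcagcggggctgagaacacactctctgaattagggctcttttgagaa

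Control-only peaks were the weak and narrow end of the control list, which follows in part from the rule and is given without a test. Their median fold enrichment over background was 4.03 (1.79 to 9.22), against 8.51 for kept peaks. Their median −log10 q was 5.15, with a highest value of 27.9, against a median of 23.4 for kept peaks. Their median width was 328 bp and they covered 4.50 Mb, whereas kept peaks had a median width of 1043 bp. KD-only peaks had a median width of 272 bp. Their folds belong to another list and are not set beside these. In the weakest decile of control peaks by −log10 q, 63.0% had no KD counterpart. This share fell to 17.6% in the fourth decile and 0.634% in the sixth, and in the 3 strongest deciles no peak was control-only.

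**Figure D1:**
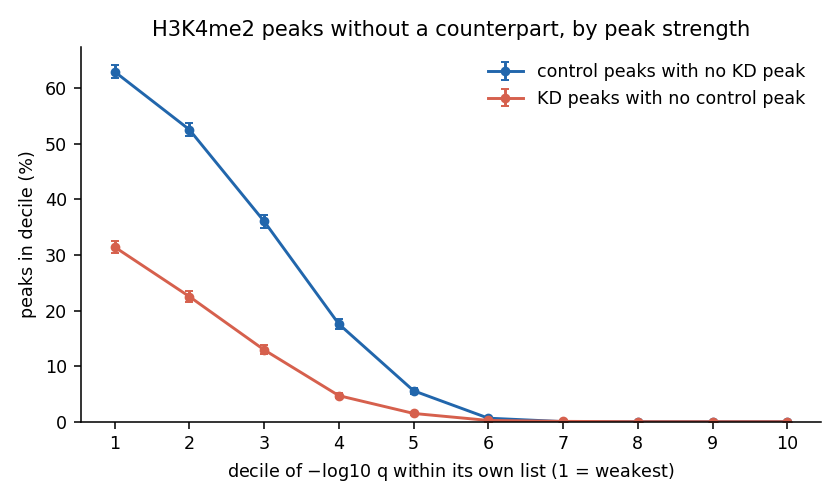
Share of H3K4me2 peaks without a counterpart in the other condition, by decile of −log10 q within each list (10 points per list, bars are 95% Wilson intervals). Control peaks without a KD peak make up 63.0% of the weakest decile and 0.634% of the sixth, and the KD list falls in the same way from a lower start.

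At the edge of the rule, 34 control-only peaks had a KD peak at most 10 bp away and 374 had one at most 100 bp away. Just inside the kept side, 44 kept peaks shared at most 10 bp with KD peaks and 633 at most 100 bp. Because strength differs so much, kept peaks are given below both as they are and weighted to the fold enrichment and width of the control-only peaks (10 classes of fold by 3 of width). After weighting, kept peaks had a median fold enrichment of 4.03 and a median width of 387 bp.

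Most control-only peaks lay far from promoters. Of 11630, 5759 (49.5%) were intergenic, 4540 (39.0%) had their summit in an intron of a protein-coding gene, 118 in a coding exon and 107 in an untranslated exon. Only 1106 (9.51%, 95% interval 8.99 to 10.1) lay within 2 kb of a protein-coding transcription start, against 36.2% of kept peaks. Kept peaks weighted to the fold and width classes of control-only peaks had 8.73%, a difference of 0.78 percentage points (0.02 to 1.54). It turned to −0.42 (−1.23 to 0.39) when classes of G+C share were added to the weights, so that no direction is given for promoters. The median distance from summit to the nearest coding start was 25.6 kb for control-only peaks, 10.9 kb for kept peaks and 35.7 kb for KD-only peaks.

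Many control-only peaks sat beside a peak that was kept. The median distance from a control-only peak to the nearest kept control peak was 4323 bp, with quartiles of 586 and 14690 bp. Of all members, 1247 (10.7%) lay within 200 bp of a kept peak, 3467 (29.8%) within 1 kb and 10718 (92.2%) within 50 kb. Kept peaks weighted to the fold and width classes of control-only peaks were placed more often beside another kept peak. Of these, 16.3% lay within 200 bp and 35.9% within 1 kb, and their median distance was 3785 bp. At 10 kb the shares came together, at 67.0% for control-only and 65.6% for weighted kept peaks.

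**Figure D2:**
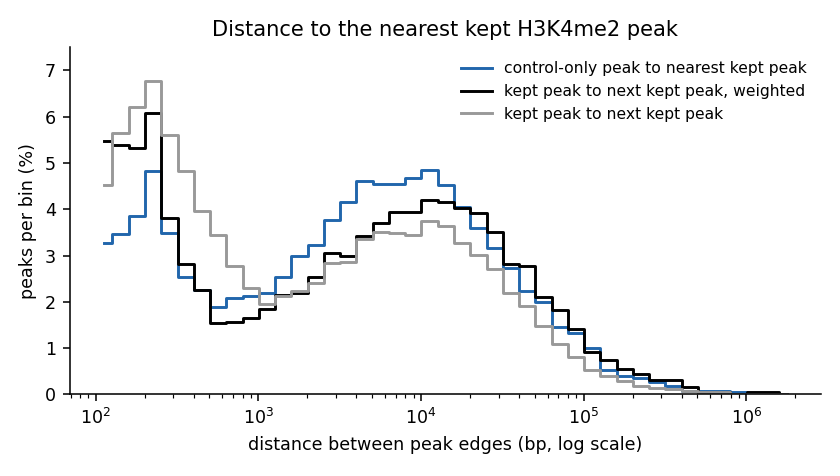
Distance between peak edges from each control-only peak to the nearest kept peak (blue) and from each kept peak to the next kept peak, weighted to the fold and width of control-only peaks (black) or not (grey), in bins of equal width on a log axis. All curves have a group below 1 kb and a broad group around 10 kb, and the control-only curve lies below the others under 200 bp.

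A KD peak, kept or KD-only, lay within 1 kb of 3688 control-only peaks (31.7%), which are called near, and the other 7942 are called far. Near and far peaks were close in strength, with median fold enrichments of 4.03 and 4.01 and median widths of 309 and 340 bp. They differed in place and marks. Promoters held 16.3% of near and 6.36% of far peaks, H3K4me1 islands of control cells held 74.9% and 55.3%, and H3K4me2 of newborn lens was found at 17.2% and 11.8%. Kept peaks of like strength showed much the same contrast when split by whether another kept peak lay within 1 kb, with 15.7% and 4.90% at promoters and 73.3% and 52.9% in control H3K4me1 islands. The 3766 kept peaks that had a control-only peak within 1 kb were somewhat weaker than the rest, with a median fold enrichment of 7.36 against 8.62, and the KD peaks over them had a median of 0.89 of their width, against 0.92 for the other kept peaks.

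H3K4me1, the enhancer mark, covered most control-only sites in control cells. Islands of H3K4me1 overlapped 7150 of 11630 control-only peaks (61.5%, 60.6 to 62.4), much as they did 64.0% of kept peaks and 60.4% of weighted kept peaks. In KD cells 3985 (34.3%, 33.4 to 35.1) lay in an H3K4me1 island, against 33.1% of weighted kept peaks. The KD H3K4me1 list is shorter overall: of 38007 control islands, 20448 (53.8%) had no KD island. That is a share of islands, so the shares of H3K4me2 peaks below are read against kept peaks instead. Of the 7150 in a control island, 3374 (47.2%, 46.0 to 48.3) had no KD island. The same share was 43.3% for kept peaks as they are and 47.7% for weighted kept peaks. The difference from weighted kept peaks was −0.54 percentage points (−2.22 to 1.15). With G+C share in the weights the difference was 1.43 (−0.30 to 3.17), and both intervals held 0. Among near peaks the values were 38.7% against 38.7%, and among far peaks 52.5% against 54.8% (difference −2.23, −4.42 to −0.03).

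By state, 3776 control-only peaks (32.5%) were in H3K4me1 islands of both conditions, 3374 (29.0%) in control islands only, 209 (1.80%) in KD islands only and 4271 (36.7%) in none. The last group stood apart in place: 14.2% lay at promoters and 20.3% had H3K4me2 in lens, against 6.25% and 10.5% of those in islands of both conditions.

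Seen from the islands, 2912 control H3K4me1 islands held control-only H3K4me2 and no kept peak. They had a median of 52 ChIP reads over 2800 bp, and 1069 (36.7%, 35.0 to 38.5) overlapped a KD island. Islands with kept H3K4me2 alone had 49.8%, but 36.4% when weighted to the same read counts. Islands that held both kinds had 70.2%, and 31.8% (29.1 to 34.7) with these weights. Among islands paired 1 to 1 between conditions, the median log2 ratio of ChIP reads per kb in KD over control, not scaled for library size, was −0.24 for 846 islands with control-only H3K4me2 alone, −0.33 for 1691 with control-only and kept H3K4me2, −0.33 for those with kept H3K4me2 alone, −0.14 for those with no H3K4me2 and −0.31 for all 13763 pairs. The order of these medians has no replicate check. The ChIP reads per kb given below for single sites are likewise not scaled for library size and have no input taken off. Control islands with control-only H3K4me2 alone had medians of 20 ChIP and 12.5 input reads per kb. A lower value in KD cells at 1 site is therefore not read as a local change.

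In newborn lens, 1575 control-only peaks (13.5%, 12.9 to 14.2) overlapped an H3K4me2 peak, against 47.2% of kept and 12.7% of weighted kept peaks (difference 0.85, −0.04 to 1.74). The share followed place. At promoters 510 of 1106 control-only peaks (46.1%) had lens H3K4me2, in introns 508 of 4540 (11.2%) and between genes 521 of 5759 (9.05%). Weighted kept peaks had 45.6%, 10.3% and 8.70% at these places, and each interval of the difference held 0. In lens itself, the 1207 H3K4me2 peaks that overlapped control-only peaks and no kept peak had a median fold enrichment of 6.32, against 17.4 for 23962 lens peaks over kept peaks alone. KD-only peaks had lens H3K4me2 at 8.48% of sites.

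Control-only sites rarely carried marks of transcription. H3K4me3 of control cells was found at 119 of 11630 (1.02%) and Pol2 at 219 (1.88%), against 27.3% and 32.7% of kept peaks. Weighted kept peaks had 1.00% and 2.44%. The remaining difference for Pol2 was −0.56 percentage points (−0.95 to −0.17). Away from promoters, 75 of 10524 control-only peaks (0.71%) had Pol2.

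**Figure D3:**
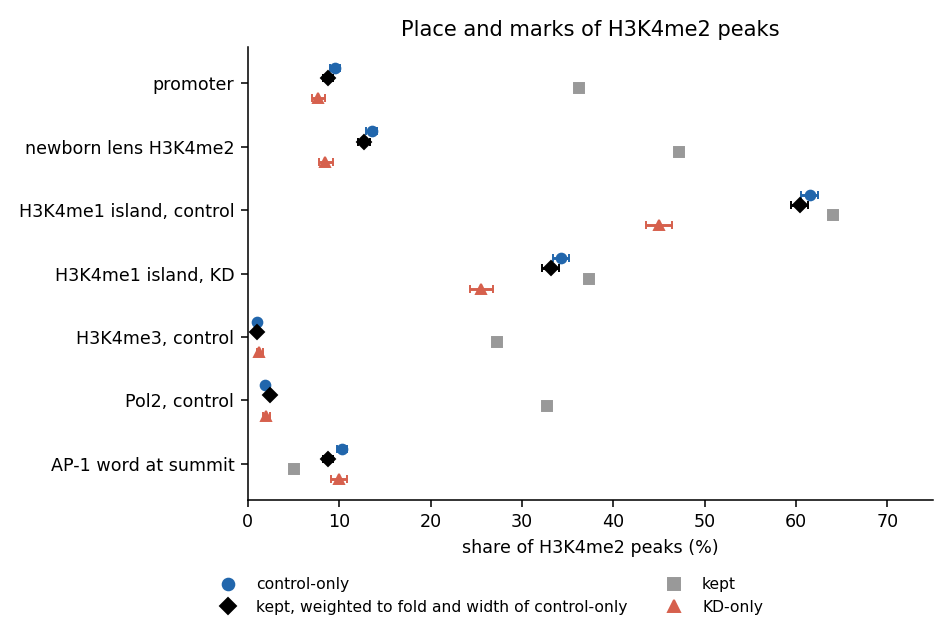
Shares of control-only, kept, weighted kept and KD-only H3K4me2 peaks at promoters, with other marks and with the AP-1 word within 100 bp of the summit (bars are 95% Wilson intervals). Control-only and weighted kept peaks lie close together on this scale, for example 61.5% and 60.4% in control H3K4me1 islands. The interval of their difference left out 0 for promoters, Pol2 and the AP-1 word. Unweighted kept peaks have more promoters (36.2%), lens H3K4me2 (47.2%) and Pol2 (32.7%).

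Pax6 was called at 26 control-only peaks (0.22%, 0.15 to 0.33), against 0.65% of kept and 0.15% of weighted kept peaks, whose difference of 0.07 percentage points (−0.05 to 0.19) held 0. Of the 382 control H3K4me2 peaks with Pax6, 6.81% (4.69 to 9.79) were control-only, below the 17.5% of all control peaks, and 5.62% would be so from their fold and width classes. Of the 26 sites, 16 lay in introns, 9 between genes and 1 at a promoter, that of the folate receptor gene Folr1. H3K4me1 islands of control cells covered 22 of them and KD islands 15, each of which also had a control island. Lens H3K4me2 was found at 7.

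The control-only peak with the strongest Pax6 (−log10 q of 55.1) lay in an intron of Hipk2, which encodes a nuclear kinase, at chr6:38710435-38710906. Its H3K4me2 fold enrichment was 3.71, and lens H3K4me2 was present with a fold of 7.37. The H3K4me1 islands over it held 27.9 ChIP reads per kb in control and 23.8 in KD cells. The next lay at chr2:167205922-167206213, 31.4 kb from the start of B4galt5, a galactosyltransferase gene, with H3K4me1 in both conditions and no lens H3K4me2. At chr17:94076089-94076613 the member had a fold of 6.55 and a control H3K4me1 island only. The member at chr15:66894125-66894332, 51.2 kb from the start of St3gal1, had the paired-domain word under its Pax6 summit, and so did the one in an intron of Cpa6 at chr1:10481545-10482494. These were 2 of 26 Pax6 windows over control-only peaks, against 13 of 358 over kept peaks, and the word stood at 0.52% of control-only H3K4me2 summits and 0.46% of weighted kept ones. A 1175 bp member in Plekha1, whose product binds phosphoinositides, at chr7:138035833-138037007 had Pax6 with a −log10 q of 4.69 and H3K4me1 islands in both conditions, with 19.6 and 17.0 ChIP reads per kb.

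In all, 9 words were searched within 100 bp of the H3K4me2 summit, on both strands. Only for the AP-1 word did the interval of the difference from weighted kept peaks leave out 0 both without and with G+C classes. It was present in 1195 control-only windows (10.3%, 9.74 to 10.8), against 5.05% of kept, 8.77% of weighted kept and 9.93% of KD-only windows. The difference from weighted kept peaks was 1.51 percentage points (0.73 to 2.28), and 1.67 (0.87 to 2.46) when classes of G+C share were added to the weights. Far peaks held it at 12.0%, against 10.3% of like kept peaks (difference 1.67, 0.64 to 2.69), and near peaks at 6.53% against 5.96%, where the interval held 0. Sox words were found in 17.2% of control-only and 18.5% of weighted kept windows (difference −1.25, −2.26 to −0.23), and CTCF words (AGGGGGC) in 2.73% and 2.06% (0.67, 0.26 to 1.07). With G+C share in the weights these became −0.28 (−1.31 to 0.76) and 0.15 (−0.29 to 0.59). Ets, Meis, TEAD (GGAATG), Runx and E-box (CACGTG) words and the paired-domain word gave intervals that held 0. Away from promoters, however, the Runx difference was 1.33 (0.26 to 2.40) with fold and width classes alone. No word contains another, and a match is not a bound site.

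Base composition also differed. The window within 100 bp of the summit had a mean G+C share of 48.1% in control-only peaks, 45.7% in weighted kept peaks and 43.3% in KD-only peaks. Among control peaks of the lower 50% by fold enrichment, the share that was control-only rose from 23.6% (22.1 to 25.2) in the lowest class of G+C to 43.4% (41.7 to 45.0) in the ninth and 42.6% in the highest. Among the weaker KD peaks, the KD-only share fell over the same classes from 23.3% to 5.79%. The lists thus had opposite slopes over G+C share, and the part of base composition in which peaks were called in each library was not tested. With G+C share in the weights, lens H3K4me2 became less frequent in control-only than in weighted kept peaks, 13.5% against 15.0% (difference −1.50, −2.46 to −0.55), so that no direction is given for lens. With these weights the difference was −0.97 (−1.40 to −0.56) for Pol2 and −0.40 (−0.71 to −0.10) for H3K4me3.

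**Figure D4:**
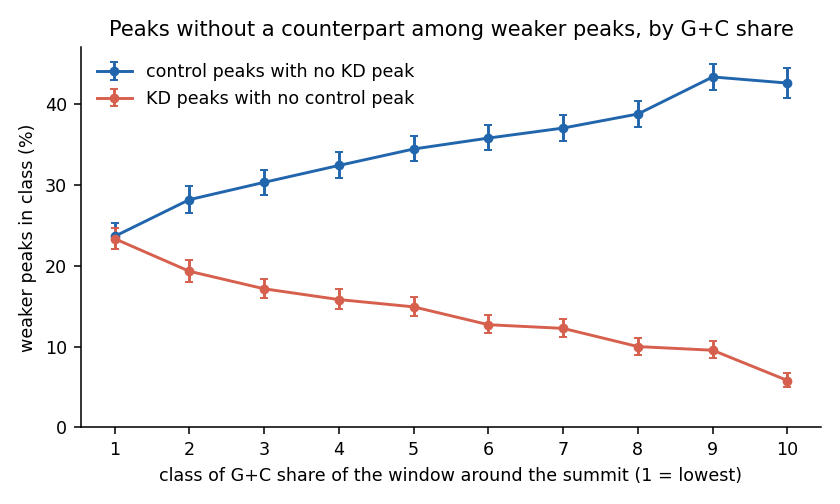
Among the weaker peaks of each list (lower 50% by fold enrichment), the share without a counterpart by class of the G+C share within 100 bp of the summit (10 classes, 1 is the lowest, bars are 95% Wilson intervals). The control curve rises from 23.6% to 42.6% and the KD curve falls from 23.3% to 5.79%.

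Control-only peaks were scattered over many genes. A peak was assigned to the protein-coding gene that holds its summit or else to the nearest start within 50 kb. In this way 8975 control-only peaks fell to 5301 of the 15548 genes with a control peak, and 2655 had no gene. Of the control peaks with no gene, 23.0% were control-only, against 16.4% of those with one. Exactly 1 such peak was found in 3394 genes, at least 5 in 212 and at least 10 in 16. For 540 genes every control peak was control-only, but 451 of these had a single peak and the largest number was 4, in Ankrd36 and Gm11016.

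The gene counts depended strongly on the length of gene models. The gene model with most control-only peaks, Gm20388 with 61 of 266, spans 4435 kb of chromosome 8, and the model given for Fgfr2 spans 3009 kb and had 17 of 51. Counted by the nearest start, Fgfr2, which encodes an FGF receptor, had 3 of 8. Msi2, which encodes an RNA-binding protein, had 13 of 40, and no KD-only peak among 33 KD peaks. Of the 13, 12 lay in H3K4me1 islands of control cells and 10 in those of KD cells. Ebf1, Mast4 and Pde4d had 12 each, of 42, 46 and 71. Pmepa1, which dampens TGF-β signalling, had 11 of 23 (2 of 13 by nearest start), and 11 of 32 fell to Trio, an exchange factor for small GTPases. When peaks were given to the nearest start instead, only 2 of the 20 leading genes were the same.

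**Figure D5:**
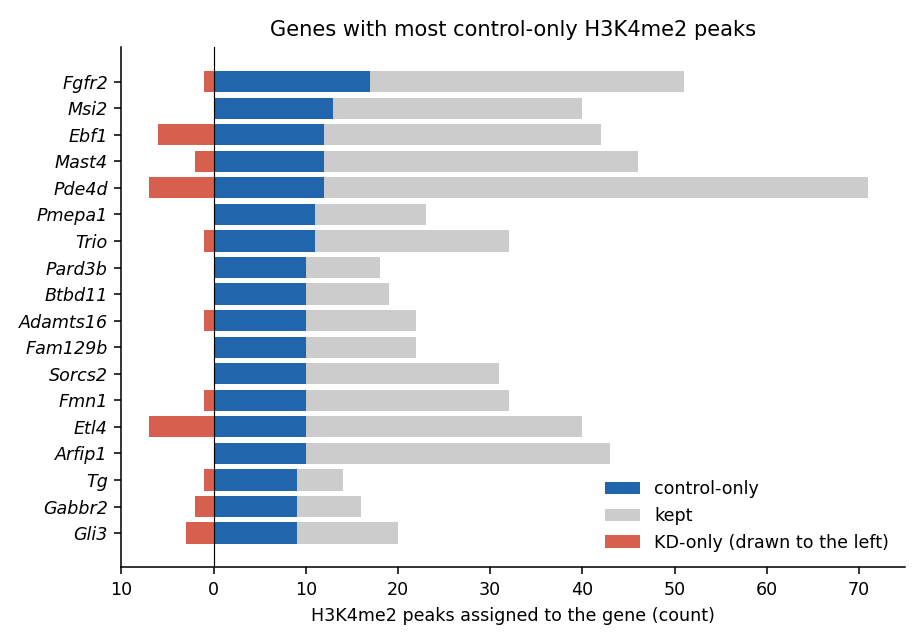
H3K4me2 peaks of the 18 genes that follow Gm20388 in number of control-only peaks, with control-only and kept control peaks drawn to the right and KD-only peaks to the left. Control-only counts run from 17 for Fgfr2 to 9 for Gli3, and Ebf1, Pde4d and Etl4 also have 6 or 7 KD-only peaks.

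Among the 1477 genes with at least 8 control peaks, 43 had at least 50% control-only and 158 had none. The highest shares were 6 of 9 for BC018507, 9 of 14 for Tg, 7 of 11 for Pxdn, which encodes the peroxidase that crosslinks collagen IV, 5 of 8 for the endothelin gene Edn2 and 5 of 8 for the ligand gene Wnt11. Further down were Gm12824, Hivep3, the chemerin receptor gene Cmklr1 with 8 of 14, Gabbr2 with 9 of 16 and the polarity gene Pard3b with 10 of 18. With so few peaks a gene these shares are wide, for example 38.8% to 83.7% for Tg. The genes differed in H3K4me1. All 9 members in Tg, the thyroglobulin gene, lay in control islands and 8 in KD islands. In Pard3b 7 lay in control islands and none in a KD island, and the nearest KD H3K4me2 peak was over 1 kb from each. In Fam129b all 10 members lay in islands of both conditions.

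The longest runs of control-only peaks lay in Pmepa1 and at Fbln2. Runs are counted along the chromosome, with no kept peak between members. There were 9042 runs, of which 7054 were single peaks (60.7% of members), and 457 held at least 3. The longest held 7 peaks. Most of the Pmepa1 run lies closer to the start of Zbp1 than to that of Pmepa1. The 7 members in Pmepa1 from chr2:173064682 to 173073359, a span of 8.68 kb, had fold enrichments of 4.38, 3.23, 4.03, 3.25, 3.46, 3.80 and 4.38. All 7 overlapped lens H3K4me2, with lens folds of 6.58 to 10.9, and all lay in 1 stretch of H3K4me1 with 36.2 ChIP reads per kb in control and 25.6 in KD cells. The 3 members just beside this run, of fold 3.92, 4.47 and 5.41, also had lens H3K4me2. The other run of 7, from chr6:91174736 to 91235920, spanned 61.2 kb and had folds of 3.38 to 4.61. Its first 6 members, up to chr6:91182575, lay in introns of Fbln2, a gene of the extracellular matrix protein fibulin. The last was intergenic, 73.0 kb from the Fbln2 start. All 7 had H3K4me1 in control cells. The 6 in Fbln2 had H3K4me1 in KD cells and no lens H3K4me2, and the last had lens H3K4me2 and no KD island. Neither run held a KD H3K4me2 peak, which follows largely from the rule for runs, since only a KD-only peak could lie inside one. Runs of 6 lay in Gm11016, Coro2b and Fam129b, at the neighbouring genes Tbc1d2 and Gabbr2, and near Fam125b, where 1 KD peak lay inside. The remaining 3 of the 10 longest held 5 peaks each, over spans of 361.7 to 695.4 kb.

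Gene groups were compared with the share that the fold and width classes of their own peaks give, as a description. The lens transcription factors had 6 control-only of 73 control peaks (8.22%, 3.82 to 16.8), against 12.5% from their classes. These were 2 at Gata3, 2 at Meis1, 1 at Meis2 and 1 at Sox2. The Sox2 member, at chr3:34541362-34541950, lay 7.17 kb from the start of this lens and neural progenitor factor and had no H3K4me1 island. Its fold was 5.07, at percentile 32.6 of the control list. The lens peak over it had a fold of 21.6, at percentile 82.5 of the lens list. The Meis2 member, 3.25 kb from the start, had a fold of 3.69 and H3K4me1 in both conditions. Only 4 of the 14 factors in the annotation had a member. Those with none included Pax6 with 1 control peak, Prox1 with 5 and Maf with 10.

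Crystallins, the structural proteins of the lens, had 3 of 22 (13.6%, 4.75 to 33.3), against 13.0% from classes. A member 7.87 kb from the start of Cryaa, at chr17:31822370-31823453, had a fold of 5.41 and H3K4me1 islands with 28.1 and 25.3 ChIP reads per kb in control and KD cells, and no lens H3K4me2. Of the 2 at Cryba4, the one at chr5:112656572-112656814 had a fold of 4.26, at percentile 20.5 of the control list. The lens peak over it had a fold of 22.1, at percentile 83.5 of the lens list. Genes of lens fibre structure had 5 of 26 (19.2%, 8.51 to 37.9, against 14.6% from classes), with 2 at Tdrd7, which encodes an RNA granule protein, and 1 each at Lim2, Dnase2b and the connexin gene Gja1.

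Genes that the study names as bound by Pax6 or responsive to its KD had 22 of 101 (21.8%, 14.8 to 30.8), against 20.8% from classes. By nearest start the group had 10 of 60 (16.7%). This list was chosen by the study on the same cells and is not independent. Tshz2, a zinc finger factor gene, had 8 of 26 and the cytokine gene Csf1 had 4 of 16. Eya4 and Zfp536 had 3 each, Farp1 had 2, and Cap2 and Plekha1 had 1 each. The Plekha1 count depends on the assignment. A member at chr7:137977201-137977643, 31.9 kb from the Plekha1 start as its nearest, fell to the long Fgfr2 model and is not among the 22. It had H3K4me1 islands in both conditions. Control H3K4me1 islands covered 18 of the 22 and KD islands 13. All 4 members at Csf1 lay in control islands of 29.2 to 35.7 ChIP reads per kb, and 3 of them in KD islands.

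H3K4 methylases, demethylases and their partners had 1 of 32 (3.13%, against 4.23% from classes), at the demethylase gene Kdm5b. AP-1 and Ets genes had 18 of 104 (17.3%, against 16.4%), with 4 of 13 at Jun and 4 of 20 at Ets1. Jun members had folds of 3.92, 5.07, 5.07 and 5.75. Only 2 of these 4 lay in a control H3K4me1 island, and none in a KD island. Signalling genes had 43 of 209 (20.6%, 15.6 to 26.6, against 17.2%), of which 17 fell to the long Fgfr2 model and 7 of 27 to Smad3, the TGF-β effector. By nearest start the signalling share was 17.9%. Matrix and capsule genes had 28 of 134 (20.9%, against 16.9%). The genes of collagen IV, the main collagen of the lens capsule, went both ways. Col4a2 had 5 of 17, Col4a3 had 4 of 9 and Col4a1 had 3 of 10, but Col4a6 had 1 of 9 and Col4a4 and Col4a5 had 0 of 3 each. Epithelial and mesenchymal genes had 16 of 75 (21.3%, against 18.1%). Of these, 5 of 7 were at Vim, the intermediate filament gene of mesenchymal and lens cells, with folds of 3.11 to 4.83 and no lens H3K4me2, and 4 of these 5 lay within 1 H3K4me1 island with a KD counterpart. For each group the share given by its classes lay inside the 95% interval of its own share.

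The 10 control-only peaks of highest fold enrichment had folds of 8.11 to 9.22, and 5 of them had a KD peak within 300 bp. The first, at chr3:85684062-85684734 (fold 9.22), lay 153 bp from a kept peak and 206 bp from a KD peak, and the next, at the Jph1 promoter (fold 9.08), lay 105 bp from a kept peak. Others were isolated. A peak at chr8:73729366-73729858 (fold 8.74) was 65.0 kb from any kept or KD peak and had lens H3K4me2 with a fold of 8.35. One at chr2:173893310-173893948, 8.07 kb from the start of Stx16 (fold 8.96), was 6823 bp from the nearest kept peak and had H3K4me1 in control cells only. Of these 10, 6 had lens H3K4me2, 5 a control and 2 a KD H3K4me1 island.

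The 10 widest members were of 1540 to 2183 bp. None had a KD peak within 300 bp. At Vps13d, Foxs1, Cdk5rap1 and Arhgap22, however, a KD peak lay 392, 409, 821 and 876 bp away, inside the 1 kb limit of near peaks. All 10 members lay in control H3K4me1 islands and 7 in KD islands, and 1 had lens H3K4me2. They included introns of Arhgap22 and of the myosin gene Myh9, at chr15:77641839-77643534, where H3K4me1 held 50.4 ChIP reads per kb in control and 35.7 in KD cells, and a site at the Foxs1 promoter with a fold of 6.85.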

How the data were processed

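Reads were mapped by the authors with Bowtie (mm9), who called H3K4me2, H3K4me3, Pax6 and Pol2 peaks with MACS2 and H3K4me1 islands with SICER, at default settings. In the peak lists the authors deposited a fold enrichment, a ratio over background, and the −log10 of p and q. In the SICER lists they deposited the count of ChIP and input reads of each island, a fold, and a p-value with its FDR. Folds were compared only within one list. Where the fold of a member and that of the lens peak over it are both given, they have different backgrounds and are not compared. One label field names the Pax6 and Pol2 antibodies the other way round, and these libraries were assigned by title.

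Coordinates are 1-based. A shared site has at least 1 bp of overlap, and a promoter lies within 2 kb of a protein-coding start of GENCODE vM1, used in place of the planned RefSeq starts. Kept peaks were weighted to the classes of the control-only peaks, with Newcombe intervals of differences from the effective number. Interval and weighting code was tested on simulated data. The named items were the 20 genes with most control-only peaks, the 10 of highest share among those with at least 8 control peaks, the 10 longest runs, the 10 strongest and 10 widest members, the 5 with the strongest Pax6, and 9 gene groups. Of the first, 1 gene is not reported here. Members and lists were chosen with earlier results of these data known. Of 16 lens transcription factors, 14 matched the annotation. Sequences of chromosome 18 are not shown. Weights with G+C classes, the near and far split of shares and the paired-domain word were chosen after seeing the data. Python 3.11.15, NumPy 2.4.6, pandas 2.3.3, pysam 0.24.0, matplotlib 3.10.9 and samtools 1.23.1 were used.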

Additional observations from a re-analysis of the deposited data

How the results depend on the processing

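With 1 library a condition, no library could be left out. No paired analysis was possible because each condition has 1 H3K4me2 library. The number of control-only peaks was 6443 with control peaks of −log10 q of at least 5, 15761 with KD peaks of that strength and 16482 when 50% of a peak had to be covered to count as kept. The share at promoters was 6.36% within 1 kb, 14.1% with starts of every biotype and 11.1% with the −log10 q limit. The lens share was 11.9% when 50% had to be covered, 12.2% with lens peaks of −log10 q of at least 5 and 16.0% with control peaks of that strength. With an FDR of at most 1e-06, H3K4me1 islands held 59.2% (control) and 31.0% (KD), and the share not in a KD island was 46.0%. With the −log10 q limit, the last 2 values were 32.9% and 48.4%. Among control-only peaks over 1 kb from any KD peak, an alternative added after seeing the data, the shares were 6.36% at promoters, 11.8% with lens H3K4me2, 55.3% and 28.2% in H3K4me1 islands, 52.5% not in a KD island, 0.57% with Pol2 and 12.0% with AP-1. Pax6 within 1 kb gave 0.41%, and AP-1 within 50 bp of the summit 4.88%. Weighted kept peaks had lens H3K4me2 at 11.6% by deciles of −log10 q and 15.0% with G+C classes. The median distance was 5236 bp from summit to summit, and the largest count per gene 14 by nearest start.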

Other observations

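The share of control peaks that was control-only ranged over chromosomes from 13.7% (12.1 to 15.4, X) to 19.6% (18.2 to 21.0, chromosome 15), and the KD-only share of KD peaks from 5.38% (4.49 to 6.43, chromosome 19) to 10.0% (8.91 to 11.2, chromosome 14). Some genes held peaks of both kinds. Ebf1 had 12 control-only and 6 KD-only peaks, Pde4d had 12 and 7, and Etl4 had 10 and 7, with 39, 69 and 42 KD peaks in all. Pmepa1, Msi2, Fam129b, Sorcs2, Arfip1, Btbd11 and Pard3b had 10 to 13 control-only and no KD-only peaks. Each of the latter had only 8 to 34 KD peaks. With 7.34% of all KD peaks being KD-only, few would fall to any of these genes.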
